A study of Drosophila melanogaster with 8 samples.

Results

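MicroRNA genes were examined in NanoDam profiles of the zinc finger transcription factor Chronophage (Cph), the fly homologue of BCL11, in progenitor cells of the adult *Drosophila melanogaster* midgut. A microRNA gene was taken as any gene with a pre_miRNA transcript in the Ensembl annotation of BDGP6, each was extended by 2 kb on either side, and genes within 5 kb of each other were joined into 1 locus. This gave 262 hairpin genes of 17873 annotated genes, in 204 loci. The 2 copies of mir-10404 on the unplaced ribosomal DNA scaffold lay outside the chromosome arms of the peak lists, which left 260 hairpins in 202 loci: 176 with 1 hairpin and 26 clusters that held the other 84. By position, 99 loci were intronic, 57 intergenic, 43 exonic and 3 of mixed class, and the median window was 4097 bp long. These classes refer to protein-coding genes only. Exonic hairpins overlap an exon of such a gene, intronic ones lie within a gene outside its exons, and the rest are intergenic. Of the 92 intergenic hairpins, 44 overlapped an annotated noncoding gene. The profiles came from 4 Cph NanoDam and 4 control libraries. Cph NanoDam flies carried endogenously YFP-tagged Cph, UAS-NanoDam and the temperature-sensitive *escargot* driver (*esg* TS), and control flies carried UAS-NanoDam and the same driver without the tagged Cph. All flies were 3 to 5 days old, were reared at 18 °C and were kept at 29 °C for 17 h, and each library was made from 30 midguts. The driver is active in intestinal stem cells and enteroblasts, so that DNA was extracted from whole midguts but could be methylated only where NanoDam was expressed. The labels place replicates 3 and 4 in batch 2 and give no batch for the other replicates.

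NanoDam is a fusion of a nanobody against GFP and YFP with the bacterial Dam methylase, which methylates the adenine of GATC. Where a tagged protein sits on DNA, GATC sites around it become methylated, and in the control the same enzyme marks chromatin that it can reach without a tagged protein. MicroRNAs are cut from hairpins in longer transcripts, first by Drosha with Pasha and then by Dicer-1 with Loquacious, and guide Argonaute-1 to messenger RNAs through the seed, bases 2 to 8 of the mature strand. Hairpins that lie in introns on the sense strand are usually transcribed with their host gene, whereas intergenic ones have a transcript of their own, whose promoter can lie far outside the windows used here. In the fly intestine, bantam is known for its role in growth downstream of Hippo signalling, mir-305 for tuning Notch and insulin signalling in stem cells, and mir-8, the fly member of the miR-200 family, for lowering Escargot as enteroblasts differentiate.

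The mature sequences below come from RefSeq (release 6 assembly), written as DNA from 5′ to 3′ with the seed in capitals. All 260 hairpins had a mature arm there under the same symbol, and the arm that RefSeq lists at the top was taken. Whether it is the strand that guides Argonaute-1 was not checked, so each seed given here is that of the listed arm. This set holds microRNAs with known roles in growth, cell death, ageing or the intestine, on whose loci much of the description rests.
mir-ban (bantam): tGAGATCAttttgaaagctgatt
mir-bft (mir-263a, bereft): aATGGCACtggaagaattcacggg
mir-275: tCAGGTACctgaagtagcgcgcg
mir-305: aTTGTACTtcatcaggtgctctg
mir-let7 (let-7): tGAGGTAGtaggttgtatagt
mir-277: tAAATGCActatctggtacgaca
mir-34: tGGCAGTGtggttagctggttgtg
mir-33: gTGCATTGtagtcgcattgtc
The bantam seed itself contains the GATC motif that Dam methylates. This was the case for 4 of the 260 seeds, and 12 of the mature arms held the motif somewhere.

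The following sequences share seeds, and were chosen to set loci with a common seed side by side in the results. The members of the mir-2 family begin with the K box seed, mir-92a and mir-92b share a seed, as do mir-279 and mir-996, and mir-285 and mir-998.
mir-2a-2: tATCACAGccagctttgatgagc
mir-2b-2: tATCACAGccagctttgaggagc
mir-13b-2: tATCACAGccattttgacgagt
mir-11: cATCACAGtctgagttcttgc
mir-92a: cATTGCACttgtcccggcctat
mir-92b: aATTGCACtagtcccggcctgc
mir-279: tGACTAGAtccacactcattaa
mir-996: tGACTAGAtttcatgctcgtct
mir-285: tAGCACCAttcgaaatcagtgc
mir-998: tAGCACCAtgagattcagctc
The 260 arms held 224 different seeds, and 17 of these occurred in 2 or more hairpins, 53 hairpins in all.

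The last set belongs to hairpins that overlapped regions called over the control in all 4 replicates (mir-282, mir-87 and mir-9384) and to the locus with the smallest adjusted p-value between the conditions (mir-4947).
mir-282: tAGCCTCTactaggctttgtctgt
mir-87: tTGAGCAAaatttcaggtgtgtga
mir-9384: aGGCATAAttcaactcacacgt
mir-4947: cTTCCGCCcatatttatccttcg

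A peak was called without a control in all 8 libraries at 126 of the 202 loci (62.4%). Among 33571 consecutive windows of the same length over the arms, 42.8% had a peak in all 8, and among the 17536 other genes, extended in the same way and mostly longer than the loci, 78.0% had one. Thus microRNA loci lay between an average stretch of the genome and an average gene. The arms include the Y chromosome (3667352 bp), which held 0 loci, and the paper used mated females unless it states otherwise. Shares of genome windows without Y are not given, here or below. No library had a peak at 39 loci (19.3%), against 32.8% of the genome windows and 8.55% of the other genes. At the remaining 37 loci a peak was present in 1 to 7 libraries, at 30 of them in both conditions, at 3 in Cph libraries alone and at 4 in control libraries alone. All 7 loci of 1 condition alone were thinly supported, since none had a peak in more than 2 libraries. A peak shows methylated GATC sites in the pooled progenitors, and a site methylated in few cells cannot be told apart from one methylated weakly in many.

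The share of a window that lay in peaks was used as the measure for each library, which records the extent of peaks and not their height. Averaged over the 202 loci, it was 18.0%, 14.4%, 15.4% and 15.9% in Cph replicates 1 to 4, and 18.7%, 19.6%, 17.3% and 17.2% in the controls. The means were 15.9% ± 1.52 (SD, n = 4) and 18.2% ± 1.13 (SD, n = 4), with Cph replicate 1 inside the range of the controls. Over the genome the same shares were 9.87% to 12.6% in Cph libraries and 11.3% to 12.9% in controls, so the peaks of Cph libraries covered less DNA in general. In every pair of the same replicate number the Cph library was also the shallower of both, with 55557571 to 107278227 reads against 70573626 to 125721243 in the controls, and the part of depth in these differences was not tested. At the 126 loci with a peak in all 8 libraries, the control mean ranged from 3.87% to 60.6% of the window, with a median of 24.7%.

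Intronic loci were covered more than intergenic ones. A peak in all 8 libraries was present at 63 of 99 intronic loci (63.6%), 30 of 57 intergenic loci (52.6%) and 30 of 43 exonic loci (69.8%), and no peak at 18, 17 and 4 of them. In the controls 20.0% ± 0.698 (SD, n = 4) of the intronic windows and 14.3% ± 1.16 (SD, n = 4) of the intergenic windows lay in peaks, and in the Cph libraries 17.0% ± 2.1 and 13.4% ± 0.371. The intronic share was above the intergenic share in each of the 8 libraries. The gap was 5.95, 2.01, 2.61 and 3.80 percentage points in Cph replicates 1 to 4, and 5.08, 5.53, 6.33 and 5.89 percentage points in the controls. Within the intronic class, the 86 loci on the sense strand of their host had 21.5% of the window in peaks in the controls and 18.6% in the Cph libraries, and the 11 antisense loci had 11.7% and 8.02%. Loci are not replicates of each other, so these classes are given as a description.

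**Figure D1:**
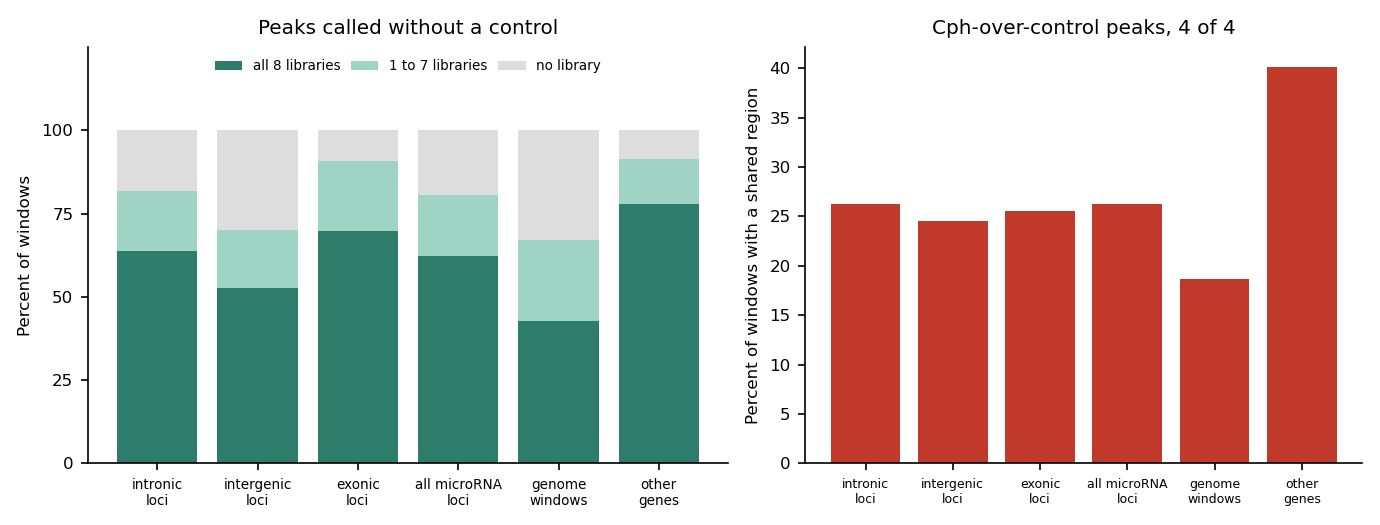
The left panel shows the percent of windows with a peak called without a control in all 8 libraries, in 1 to 7 or in none, and the right panel the percent of windows with a region shared by all 4 lists of Cph-over-control peaks, for 3 classes of microRNA loci, for all 202 loci, the genome windows and the other genes. MicroRNA loci lie between genome windows and other genes in both panels, and their classes differ more on the left (52.6% to 69.8% in all 8 libraries) than on the right (24.6% to 26.3%).

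Where a locus window held the start of a protein-coding gene, peaks were more frequent. Of 90 such loci, 66 (73.3%) had a peak in all 8 libraries, against 60 of the 112 others (53.6%), and 20.2% against 16.6% of the window was in peaks in the controls. A coding start lay in 44 of 99 intronic windows and in 17 of 57 intergenic windows. The number of GATC sites differed as well. The median was 3.66 GATC sites per kb at loci with a peak in all 8 libraries and 1.22 at loci with none. Of the loci with 1 hairpin, 4 of 20 with under 5 sites had a peak in all 8 libraries (20%), 21 of 45 with 5 to 9 sites (46.7%), 27 of 41 with 10 to 14 sites (65.9%) and 59 of 70 with 15 or more (84.3%). For the genome windows the same shares were 9.54%, 29.7%, 48.2% and 65.5%, so that microRNA loci were above genome windows in each class of GATC number. The 2 loci with under 2 sites had no peak, and where sites are few the absence of a peak cannot show an absence of methylase. The part of GATC number in the differences between classes was not tested.

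Around the 176 single hairpins, oriented along their strand, peaks were densest just ahead of the hairpin. In the controls 24.5% ± 1.97 (SD, n = 4) of bases were in peaks in the 100 bp bin centred 150 bp before the hairpin centre, and in the Cph libraries 20.8% ± 2.40 in the same bin. Over the 1000 bp before the hairpin centre, the Cph libraries had 20.2%, 13.2%, 15.6% and 15.7% of bases in peaks and the controls 21.6%, 21.8%, 20.5% and 20.2%. Cph replicate 1 was level with the lowest control, and the other 3 Cph libraries lay below all 4. Over the 1000 bp after it, the means were 18.3% ± 1.07 and 20.0% ± 1.17, and the libraries of both conditions overlapped. The hairpins themselves were often outside peaks: 29 of 260 overlapped a peak in all 8 libraries and 185 in none. Of the 59 hairpins with a GATC site inside, 11 (18.6%) were in peaks of all 8 libraries, against 18 of the 201 without (8.96%).

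**Figure D2:**
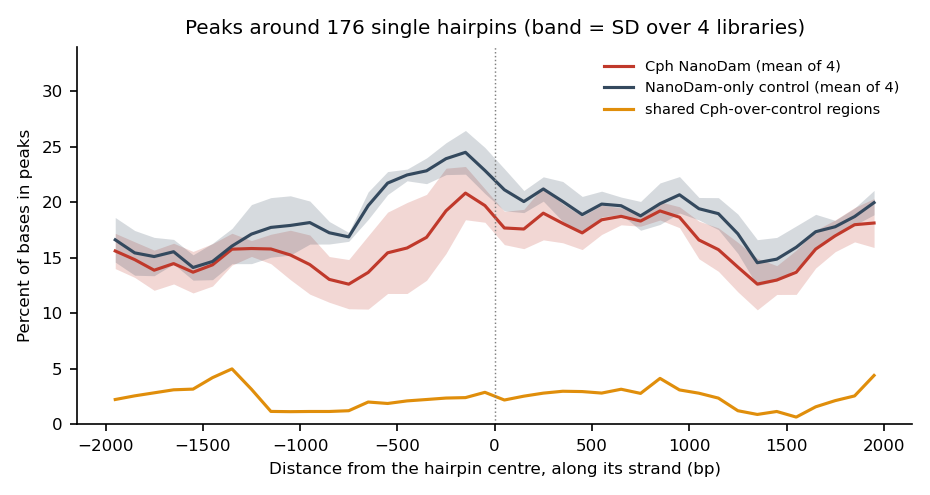
The percent of bases in peaks (y) is plotted against the distance from the hairpin centre in bp (x) over 176 single hairpins, as the mean of 4 Cph and 4 control libraries with the SD as a band, and for the regions shared by all 4 lists of Cph-over-control peaks. Both conditions are highest at 150 bp before the centre (24.5% in controls, 20.8% in Cph libraries), and the shared regions cover at most 4.98% of bases, at 1350 bp before it.

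The microRNAs with known roles were spread over the entire range. Of 25 loci on this list, 15 had a peak in all 8 libraries, 4 in none and 6 in 1 to 7. The bantam locus (3L, 642208 to 642288), whose microRNA blocks the cell death gene *hid*, had 19.1%, 19.7%, 18.1% and 18.8% of its window in peaks in the Cph libraries and 18.8%, 19.1%, 18.7% and 18.5% in the controls. The 8 libraries were nearly alike, and the difference of 0.17 percentage points (SE 1.22) was far inside the error. With 5 kb on either side, it was -7.16 percentage points. At mir-275 and mir-305 (2L, 7425795 to 7426044) the Cph libraries had 29.2%, 28.2%, 27.9% and 29.0% and the controls 29.3%, 29.9%, 26.8% and 27.8%. Here too both conditions overlapped, with a difference of 0.10 percentage points (SE 1.59).

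At mir-8 (2R, 16831432 to 16831518) peaks covered 32.5%, 37.5%, 47.0% and 46.1% of the window in the Cph libraries and 30.6%, 43.0%, 34.1% and 31.6% in the controls. Cph replicates 3 and 4 exceeded every control, while replicates 1 and 2 lay within the controls, and the difference of 5.95 percentage points (SE 4.07) did not pass the test (limma, adjusted p = 0.486). The let-7 cluster with mir-100 and mir-125, known for the timing of development, had 0%, 24.8%, 10.8% and 9.82% in the Cph libraries and 10.1%, 12.4%, 4.27% and 0% in the controls. One library of each condition had no peak there, and the groups overlapped widely. mir-277 and mir-34 (3R, 10100022 to 10101034), linked to amino acid metabolism and to ageing, had 38.3%, 7.34%, 12.6% and 30.5% in the Cph libraries and 38.5%, 37.7%, 37.9% and 37.9% in the controls. The controls hardly varied, Cph replicate 1 was as high as they were, and replicates 2 and 3 were far lower. The difference of -15.8 percentage points (SE 5.74) did not pass the test (limma, adjusted p = 0.267).

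mir-9a, which limits the number of sensory organ precursors through *senseless*, had 17.9% of its window in peaks in Cph replicate 1 and 0% in the other 3 Cph libraries, and 13.8%, 15.3%, 14.0% and 14.4% in the controls. Thus every control had a peak and 3 Cph libraries had none, but Cph replicate 1 was the highest of all 8, and the difference of -9.90 percentage points (SE 3.70) did not pass the test (adjusted p = 0.276). mir-7, in an intron of *HnRNP-K*, had 38.2%, 14.6%, 23.4% and 35.6% in the Cph libraries and 38.7%, 47.5%, 40.3% and 24.2% in the controls. The lowest control lay among the Cph libraries. mir-998 and mir-11, in an intron of the cell cycle regulator *E2f1*, had 0.128%, 0%, 12.0% and 0.213% in the Cph libraries and 0%, 6.33%, 19.7% and 17.0% in the controls. One control had no peak and 1 Cph library had a broad one, and the difference of -7.68 percentage points (SE 2.81) had an adjusted p of 0.269.

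Other well-known loci were covered alike in both conditions or were empty. mir-1, a muscle microRNA, had 12.6% to 15.8% in the Cph libraries and 15.4% to 16.3% across the controls, mir-184 had 17.1% to 29.9% and 24.9% to 31.9%, and mir-10, in the Antennapedia complex of Hox genes, had 34.4% to 48.3% and 41.0% to 53.8%. All 3 ranges overlap. No library had a peak at mir-bft (mir-263a), at mir-124, a microRNA of neurons, at mir-276b, or at mir-iab-4 and mir-iab-8, which act on Hox genes. The windows of these 4 loci held 8, 10, 10 and 2 GATC sites. bantam and mir-263a, which are both known to silence *hid*, thus differed, with a peak in all 8 libraries at the former and in none at the latter.

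**Figure D3:**
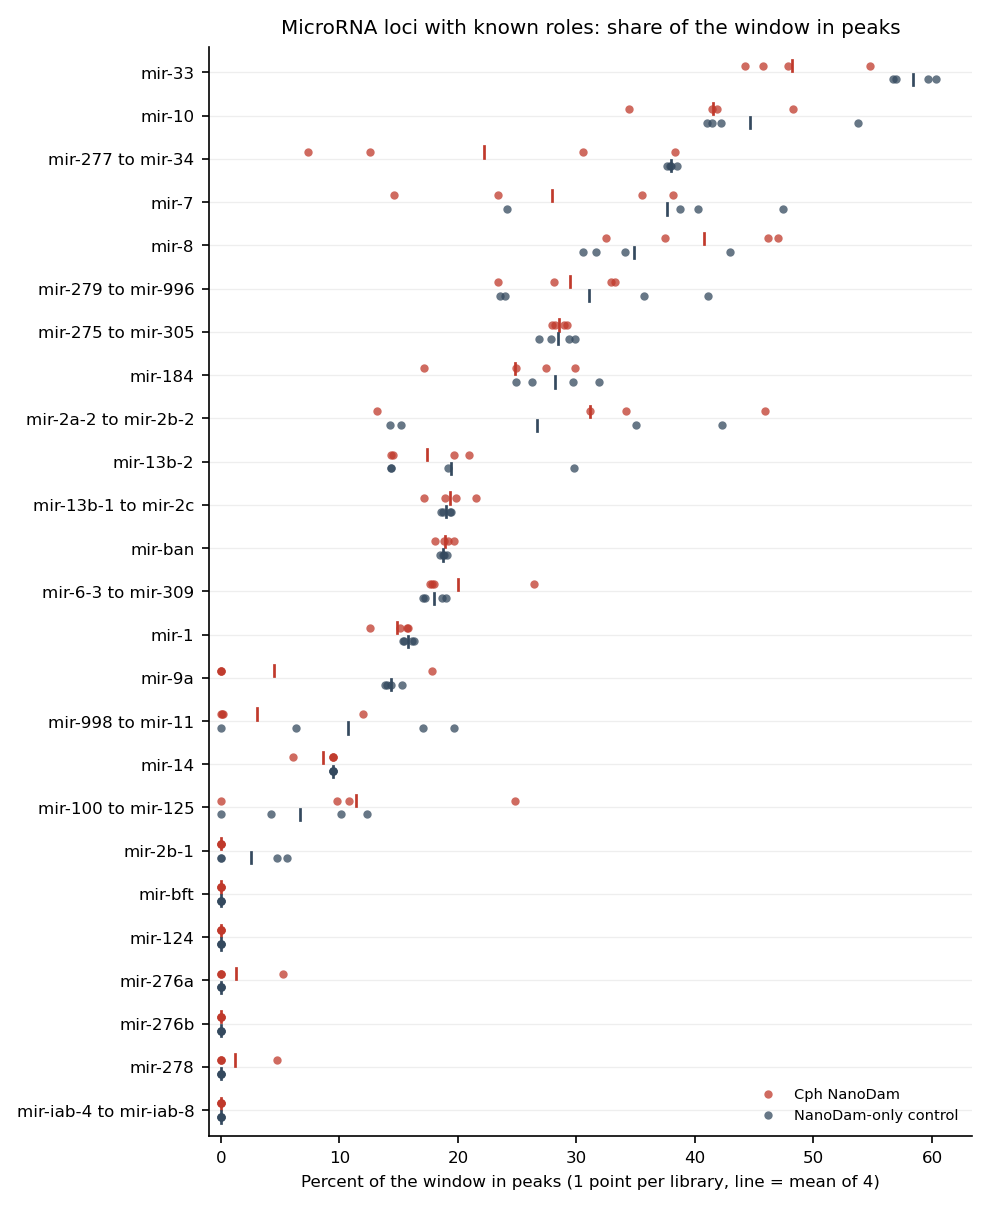
The percent of the window in peaks (x) is plotted for the 25 loci with known roles (y), with a point per library and a line at the mean of 4. mir-33 is the only locus shown where the 4 Cph libraries (44.3% to 54.7%) lie below all 4 controls (56.7% to 60.4%), and at 4 loci all 8 points lie at 0.

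Loci with a common seed did not share a common level. The K box seed ATCACAG was carried by 13 hairpins in 7 loci, of which 5 had a peak in all 8 libraries and none was without a peak. Their control means ranged from 2.58% at mir-2b-1, in an exon of the kinase gene *Btk*, to 26.7% at mir-2a-2 and mir-2b-2, in an intron of the EGF ligand gene *spi*. At the *spi* locus the Cph libraries had 45.9%, 34.2%, 13.2% and 31.1% and the controls 35.0%, 42.2%, 14.3% and 15.2%. Replicate 3 was the lowest library of its condition in both, and the groups overlapped. The seed ATTGCAC was found in 6 hairpins of 2 loci, and only the one with mir-92a and mir-92b had peaks, in all 8 libraries, while the mir-310 to mir-313 cluster had none. The seed GACTAGA of mir-279 and mir-996 also occurred in mir-286, and both loci had a peak in all 8 libraries. The listed arms of mir-276a and mir-276b share the seed AGCGAGG, and the only peak at either locus was in Cph replicate 1 at mir-276a (5.25% of the window). Of the 15 seeds found at 2 or more loci, 4 had a peak in all 8 libraries at each of their loci, and 4 had both loci of that kind and loci without any peak.

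The authors also called each Cph library over the control of the same number. Such Cph-over-control peaks were found in 4 of 4 replicates at 76 loci, in 3 at 30, in 2 at 21, in 1 at 19 and in none at 56. Regions shared by all 4 lists over at least 200 bp overlapped the windows of 53 loci (26.2%), against 18.6% of the genome windows and 40.2% of the other genes. A region was counted also where only its edge reached the window. At mir-277 to mir-34 the region was 542 bp long, of which 26 bp lay in the window. The loci again stood between genome windows and other genes. By class, 26 of 99 intronic loci (26.3%), 14 of 57 intergenic (24.6%) and 11 of 43 exonic (25.6%) had a shared region. The intronic share exceeded the intergenic share by 1.70 percentage points, with a 95% interval from -13.0 to 15.0 that covers counting error only. Without 1 replicate it ran from 2.23 to 7.55 percentage points, the highest being without replicate 1. Clusters had a shared region in 8 of 26 cases (30.8%) and single hairpins in 25.6%. With a coding gene start in the window the share was 33.3%, and without one 20.5%.

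Of the 7289 shared regions of the genome, 67 overlapped the windows of these 53 loci. The median length of these regions was 270 bp (275 bp over the genome) and their median distance to the nearest hairpin was 930 bp. The fold enrichment over the control was low, from 1.22 to 7.29 over all regions and replicates, with a median of 1.61 for the lowest of the 4 replicates. In 11 regions it was at least 2 in every replicate, and in 0 at least 3. Most shared regions lay where the controls had peaks of their own: 56 of 67 (83.6%) were in peaks of all 4 controls called without a control, as were 84.1% over the genome. A single region, 1825 bp from mir-929 in an intron of *cpx*, lay in no control peak, against 2.85% of regions over the genome. At mir-929 the Cph libraries had 4.48%, 4.87%, 4.87% and 4.87% of the window in peaks, and the controls 0% in 3 libraries and 12.1% in the other, so that even there the groups overlapped. This locus was chosen after its values were seen.

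By the lowest replicate, the 10 loci with the strongest Cph-over-control peaks were mir-4917, mir-9377, mir-2493, mir-282, mir-982 to mir-984, mir-92a with mir-92b, mir-87, mir-9384, mir-4955 and mir-4943. The highest peak at mir-4917 (X, 14199545 to 14199621), in an exon of the yolk protein receptor gene *yl*, had a fold enrichment of 2.81, 3.35, 4.22 and 3.42 in replicates 1 to 4. mir-9377 (X, 12665217 to 12665268), in an intron of *Tis11*, whose product promotes the decay of messenger RNAs, had 2.45, 4.19, 2.37 and 2.63. At mir-2493, in an intron of *CG42788*, it was 2.32, 7.29, 4.43 and 3.37. Replicate 2 was the highest at mir-9377 and mir-2493, and replicate 3 at mir-4917. The last of the 10, mir-4943 in an exon of *CG5953*, had a lowest value of 2.11, as did mir-11182 just outside, and at both the values differ only in further digits. These values chose the loci and are given as a description.

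The share of the window in peaks varied among these 10 loci. mir-4917 had 14.0% to 19.4% of its window in peaks in the Cph libraries and 14.0% to 17.8% across the controls, and mir-2493 6.23% in all 4 Cph libraries and 6.23% to 6.75% in the controls. mir-282 (3L, 3251022 to 3251118), whose hairpin overlapped a shared region of 636 bp, had 40.7%, 40.5%, 39.3% and 39.4% in the Cph libraries and 40.6%, 43.4%, 29.9% and 30.0% in the controls. The Cph libraries were alike, and controls 3 and 4 were lower. mir-4955, in an exon of the perlecan gene *trol*, had the largest rise of all loci tested, with 45.6%, 38.1%, 32.5% and 45.7% in the Cph libraries and 21.3%, 46.1%, 34.9% and 14.5% in the controls. Replicates 1 and 4 carried the difference of 11.3 percentage points (SE 7.68), and replicates 2 and 3 went the opposite way (adjusted p = 0.485). Over the 53 loci with a shared region, 22 were higher and 31 lower in the Cph libraries in their share in peaks, with a median of -0.88 percentage points. At the 110 loci with a peak but no shared region, 30 were higher and 79 lower, with a median of -2.37. Since the Cph libraries enter both measures, the comparison is a description.

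**Figure D4:**
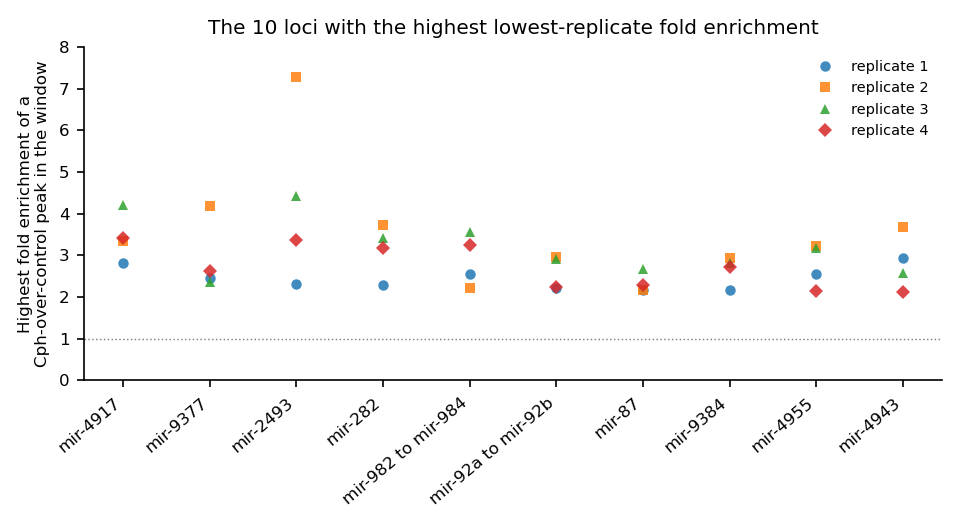
The highest fold enrichment of a Cph-over-control peak in the window (y, linear scale, dotted line at 1) is plotted for the 10 loci with the highest lowest-replicate value (x), with a point for each replicate. All points lie above 2, and replicate 2 at mir-2493 is the highest at 7.29.

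In 7 cases a hairpin itself overlapped a shared region: mir-4914, mir-87, mir-2490, mir-282, mir-285, mir-9384 and mir-12. The sequence of such a region is given for mir-87, and for bantam that of the region 1767 bp from its hairpin, on the plus strand of the release 6 assembly with GATC in capitals. They were chosen as a region that overlaps an intergenic hairpin in part and as the microRNA best known for growth in this tissue.
mir-87 region, chr2L:9950471-9950679: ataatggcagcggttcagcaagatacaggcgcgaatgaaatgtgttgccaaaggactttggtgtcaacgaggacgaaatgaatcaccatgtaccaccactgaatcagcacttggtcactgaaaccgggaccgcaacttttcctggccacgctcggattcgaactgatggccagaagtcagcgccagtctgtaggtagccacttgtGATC
bantam region, chr3L:644055-644263: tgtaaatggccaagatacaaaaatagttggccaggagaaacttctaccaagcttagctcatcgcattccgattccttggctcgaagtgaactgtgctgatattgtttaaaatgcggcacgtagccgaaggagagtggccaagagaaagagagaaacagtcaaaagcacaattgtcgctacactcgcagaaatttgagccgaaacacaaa
Both regions are 209 bp long. The mir-87 region ends on its only GATC, and the bantam region holds 0 GATC sites. Since the assay reads fragments between sites, a called region need not contain one. Fold enrichment over the control was 1.81, 2.17, 2.66 and 2.28 in the mir-87 region and 1.60, 2.19, 2.34 and 2.03 in the bantam region. All 4 controls had peaks over both regions when called without a control.

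mir-87 had 2 further shared regions in its window, and mir-33 also had 3 in all. The mir-87 window (hairpin at 2L, 9950418 to 9950516, on the minus strand) was in peaks over 34.1%, 37.7%, 22.7% and 28.2% of its length in the Cph libraries and 37.4%, 36.3%, 43.4% and 21.3% in the controls. The lowest library was a control, and the groups overlapped. mir-9384, in an intron of *tacc*, whose product binds spindle microtubules, lay in the one shared region that covered the start of a coding gene. It had 52.0%, 17.6%, 28.1% and 28.4% in the Cph libraries and 52.8%, 58.4%, 28.5% and 28.1% in the controls. Replicate 2 alone carried the difference, and the other pairs differed by less than 1 percentage point. Among all 67 regions 12 were within 500 bp of a coding gene start, and the median distance was 1856 bp.

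Between the conditions, 0 of the 163 loci with a peak in any library passed the test on the share of the window in peaks (limma with the replicate number as a block, adjusted over 16199 windows). Over all these windows 8 passed (0.0494%), 2 of them higher (0.0123%) and 6 lower (0.037%) in the Cph libraries. At an unadjusted p under 0.05, 25 loci were lower and 0 higher, where 14.3% of all windows were lower and 3.06% higher. Of the 163 loci, 110 had a lower mean in the Cph libraries, 52 a higher one and 1 the same, with a median difference of -1.58 percentage points. Over all windows the median was -1.42, so the loci moved with the other windows. Without replicate 2 the median was -0.42 for the loci, with 92 lower and 71 higher, and -0.706 over all windows. At that setting 13 loci had an unadjusted p under 0.05, as had 14 without replicate 3. The shares of all windows at these settings are not given here, so nothing is read from these counts. When each value was divided by the share of the arms in peaks of its library, 89 loci were higher and 74 lower, so the direction of the shift depends on this scaling. As a ratio to that share, the median difference was then 0.032 for the loci and 0.029 over all windows, so both changed direction alike. In replicates 1 and 2 the median was -2.62 percentage points (109 lower, 48 higher), and in replicates 3 and 4, of batch 2, it was -0.28 (85 lower, 63 higher). Among windows with a peak in replicates 1 and 2, the median was -2.74 for the loci and -2.08 over all windows. In replicates 3 and 4 these were -0.631 and -0.892, so all windows also fell less there.

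At 10 loci each Cph library lay below each control, and at 0 loci above. Over all windows these shares were 7.54% and 1.54%, and 10 of 163 is no more than the background. For each of the 10 the exact two-sided permutation test gave p = 0.0286, the smallest that 70 arrangements allow, and 0.315 after adjustment over all windows. Groups without overlap always give this smallest value, and the test left out the replicate block. Nothing is therefore read from it for these loci. The differences ran from -3.56 to -14.6 percentage points. That all 10 were lower in both sets of replicates follows from how they were chosen. mir-4947 (3R, 29008753 to 29008852), in an intron of *wat*, which encodes a fatty acyl-CoA reductase of the tracheae, had 15.8%, 6.05%, 6.54% and 5.17% in the Cph libraries and 25.1%, 17.3%, 24.4% and 17.6% in the controls. Cph replicate 1 came close to the lowest control. Its difference of -12.7 percentage points (SE 1.76) had the smallest adjusted p of all loci, 0.101.

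mir-33 (3L, 19797961 to 19798059) lies in an intron of *SREBP*, the regulator of lipid synthesis, as its mammalian counterparts lie in SREBP genes. It had 47.8%, 44.3%, 45.8% and 54.7% of its window in peaks in the Cph libraries and 59.6%, 56.9%, 60.4% and 56.7% in the controls. The window was among the most covered of all loci in both conditions, and the nearest values of the groups were 54.7% and 56.7%. The difference of -10.2 percentage points (SE 3.12) had an adjusted p of 0.226. In the same window 3 regions were called over the control in all 4 replicates, the nearest 348 bp from the hairpin with a fold enrichment of 1.89, 2.99, 3.13 and 2.22. Thus the Cph libraries had less of the window in peaks and still had stretches of enrichment over their own controls within it.

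mir-2281, in an intron of *cv-c*, had 24.9%, 7.48%, 12.7% and 17.8% in the Cph libraries and 25.7%, 25.7%, 38.6% and 29.4% in the controls. Cph replicate 1 was just below the lowest control. mir-982 to mir-984, a cluster on the X chromosome, had 17.7%, 11.4%, 19.7% and 22.1% in the Cph libraries and 27.0%, 22.4%, 25.2% and 28.3% in the controls, with adjacent values at 22.1% and 22.4%. The difference was -7.99 percentage points (SE 1.63, adjusted p = 0.137). The highest fold enrichment of its peaks, called without a control, went the opposite way. It was 5.06, 6.25, 6.56 and 5.01 in the Cph libraries and 2.73, 3.66, 3.60 and 3.57 in the controls. mir-92a and mir-92b, in an intron and in an exon of *jigr1* and known in neural stem cells, had 32.6%, 33.0%, 27.5% and 30.7% in the Cph libraries and 41.6%, 41.6%, 35.1% and 33.1% in the controls. These groups were separated by the narrow gap between 33.0% and 33.1%. In the highest fold enrichment without a control, the groups overlapped at mir-4947, mir-2281, mir-92a with mir-92b and mir-10404-3. A lower share in peaks is therefore not read as weaker methylation.

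mir-10404-3, one of the copies of a hairpin that derives from the spacer of ribosomal RNA genes, had 21.6%, 20.2%, 26.5% and 28.0% in the Cph libraries and 47.5%, 37.4%, 34.7% and 35.1% in the controls. Its difference of -14.6 percentage points (SE 3.74) was the largest of the 10, with an adjusted p of 0.199. Only reads with a unique position were retained, so reads that match several near-identical copies equally well were left out. The part of this in the value was not tested. The other 4 were mir-316, mir-9382 in an intron of the transporter gene *MRP*, mir-969 with mir-210, and mir-994 with mir-318. At mir-969 with mir-210 the Cph libraries had 5.10%, 3.11%, 0% and 0% and the controls 10.6%, 5.90%, 7.54% and 12.8%, so that the locus was thinly covered throughout. Across all loci, the widest drop in the mean was at mir-11182, in an exon of *CG5726*, chosen after its values were seen. It had 52.3%, 16.2%, 19.9% and 20.4% in the Cph libraries and 56.8%, 66.0%, 48.5% and 48.5% in the controls, and Cph replicate 1 lay among the controls.

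**Figure D5:**
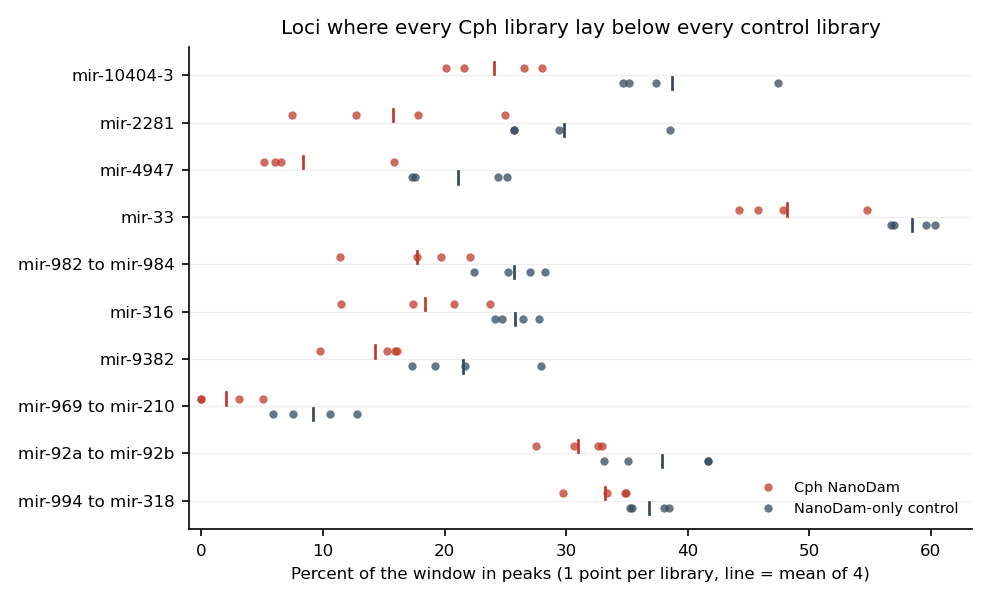
The percent of the window in peaks (x) is plotted for the 10 loci where each Cph library lay below each control (y), with a point per library and a line at the mean of 4. The gap is widest at mir-10404-3 (28.0% against 34.7%) and is nearly closed at mir-982 to mir-984 and at mir-92a to mir-92b.

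Among the loci with a peak in 1 to 7 libraries, 14 had one in all 4 controls and in fewer Cph libraries, and 2 had the reverse. The same counts over all windows are not given here, and peaks of Cph libraries covered less DNA in general. Nothing is therefore read from these counts about microRNA loci. mir-967, in an intron of *bun*, had a peak in 3 Cph libraries and a mean of 11.9% against 26.9% in the controls, and mir-1000, in an intron of *msi*, 8.01% against 20.4%. The 2 of the reverse kind were mir-929, above, and mir-4941 in an exon of *Notum*, which encodes a secreted Wnt antagonist, with means of 7.95% and 4.06%. mir-967, mir-1000 and mir-4941 were chosen after their values were seen. By the control mean, the 4 most covered loci were intronic: mir-3645 in *Mlc-c*, a myosin light chain gene, mir-33, mir-988 in *Prp8*, a component of the spliceosome, and mir-1013 in *wts*, the kinase of the Hippo pathway. mir-1013 had 51.6%, 44.9%, 66.3% and 66.3% in the Cph libraries and 50.5%, 55.1%, 66.3% and 52.5% in the controls.

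For 79 pairs of an intronic locus and its host gene, antisense hosts included, the window could be set against the rest of the gene. *rdgA* entered with both mir-4964 and mir-31b. In the controls the window had a larger share in peaks than the rest of its host in 41 cases and a smaller one in 38, with a median difference of 1.00 percentage point. The differences ran both ways, from -58.9 percentage points at mir-3644 in *Kpc1* to 49.9 at mir-966 in *Pfas*. At mir-7 the window was at 37.6% and the rest of *HnRNP-K* at 12.3%, and at mir-281-2 with mir-281-1 the order was the opposite, with 21.6% in the window and 49.7% in the rest of *Oda*. These 4 loci were chosen after their values were seen.

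The genes that make and use microRNAs each had a peak in their window. Of 12 genes of the pathway (*drosha*, *pasha*, *Ranbp21*, *Dcr-1*, *loqs*, *AGO1*, *gw*, *Nbr*, *Tailor*, *Ars2*, *Cbp20* and *Cbp80*) 12 had a peak in all 8 libraries, 7 had a shared region and 0 passed the test, with 8 lower and 4 higher in the Cph libraries. Among other genes, 78.0% had a peak in all 8 libraries and 40.2% a shared region, and nothing is read from these few genes or from the 8 targets below against those shares. The smallest adjusted p, 0.184, was that of *gw*, whose product carries out silencing with Argonaute-1. It had 29.4%, 18.0%, 24.6% and 30.3% in the Cph libraries and 38.6%, 33.0%, 31.1% and 36.2% in the controls, without overlap. At *AGO1*, which had the most bases in shared regions of the 12 (1263 bp), the Cph libraries had 35.4%, 35.3%, 30.3% and 31.1% and the controls 32.8%, 31.1%, 26.7% and 27.4%. Of 8 known targets of the microRNAs named here (*hid*, *rpr*, *skl*, *grim*, *esg*, *ex*, *sens* and *InR*) 5 had a peak in all 8 libraries, 4 had a shared region (*hid*, *esg*, *ex* and *InR*) and 0 passed the test. *rpr*, a cell death gene, had no peak in any library. Windows of progenitor marker genes (*esg*, *Delta* and *klu*) were covered more in the controls, with a median of 34.9%, than those of markers of enteroendocrine cells (7.77%), enterocytes (17.7%) or visceral muscle (12.3%). The lists overlapped, since *klu* was at 25.1% and the enterocyte marker *Myo31DF* at 28.1%. Peaks record methylation and not expression, and these lists hold 2 or 3 genes each.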

How the data were processed

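The authors trimmed the reads, aligned them to BDGP6 with Bowtie2 (2.5.4 in the submitters' processing notes), retained reads with a unique position and called peaks in broad mode with MACS2, whose version is 2.1.4 in the file headers and 2.2.9.1 in the notes, at a q of 0.05 and a broad cutoff of 0.1. The lists were deposited per library, without pooling: 8 called without a control and 4 of each Cph library over its numbered control. The deposited values of each peak are a fold enrichment (a ratio of pileup to local background), −log10 of the p-value and q-value, a score, and in some lists the pileup signal. Positions and fold enrichment were used, and −log10 q only in an alternative. The 12 lists in both formats were identical, and 6 filtered lists were identical to the unfiltered ones and were not used. Reads per position are not given, so the depth behind a single peak is unknown.

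Genes came from the Ensembl annotation of BDGP6 without transposable elements, where pre_miRNA is a biotype of transcripts. The percent of each window in peaks was compared with limma 3.58.1 (R 4.3.3, trend and robust) over all 16199 windows with a peak (163 microRNA loci and other genes extended by 2 kb), two-sided, with Benjamini-Hochberg adjustment and a threshold of 0.05. Shared regions are bases in all 4 Cph-over-control lists over at least 200 bp. The replicate number was used as a block, since the authors called each Cph library over the control of its number. Deviations from the group means correlated by 0.366, 0.129, 0.216 and 0.230 in the 4 pairs. Between Cph and control libraries of different numbers, the values were 0.104 and 0.113 within replicates 1 and 2. Within replicates 3 and 4 they were 0.252 and 0.310, above the numbered pairs there. Across these sets they ran from -0.330 to -0.129. The numbered pairs thus do not stand out within replicates 3 and 4, and the block rests on the authors' calls. The steps were tested on simulated data. Python 3.11.15, numpy 2.4.6, pandas 2.3.3, scipy 1.17.1 and Biopython 1.88 were used.

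The loci named are 25 with known roles, the 10 with the highest lowest fold enrichment over the control, and of the loci without overlap between conditions the 5 with the largest difference, with others marked where they occur. The members and gene lists were chosen with earlier results of these data known. Alternatives covered the window, the minimum fold enrichment, q and length, the scaling, the block and each replicate.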

Additional observations from a re-analysis of the deposited data

Results flagged for a closer look

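In 8 of 63 groups of 4 libraries at the named loci (12.7%), 1 library stood far from the other 3 by Dixon's criterion. Its rate of about 1 of 20 groups by chance holds for normal values without ties, whereas these shares are bounded and can be tied. At mir-9a, mir-276a, mir-278 and mir-14 the other 3 values were identical, so any differing value met the criterion. mir-4947 was also named for the same values. The 8 groups are therefore a description, and 12.7% is not compared with that rate. Of the 8, 4 were a high value in Cph replicate 1. At mir-9a this library had 17.9% of the window in peaks and the other Cph libraries 0%, at mir-276a 5.25% against 0%, at mir-278 4.71% against 0%, and at mir-4947 15.8% against 5.17% to 6.54%. Cph replicate 2 stood apart at mir-14, a microRNA that restrains cell death, with 6.10% against 9.50% in the other 3, and at mir-6-3 to mir-309, a cluster of the early embryo, with 26.4% against 17.7% to 18.0%. Cph replicate 3 had 12.0% at mir-998 to mir-11, where the others had 0% to 0.213%. Control replicate 2, the deepest library, had 53.8% at mir-10 against 41.0% to 42.2%.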

How the results depend on the processing

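The number of microRNA loci past the threshold stayed at 0 under every alternative run except windows of 5 kb on either side, where it was 1 (mir-10404-4, adjusted p = 0.0439). Without the replicate block it was also 0, while the number among all windows went from 8 to 165, the pairs being given by the authors' own calls. Among all windows it was 14 with 1 kb, 131 with 5 kb and 71 without the filter on windows without a peak, and 0 with the arcsine square root, with a fold enrichment of at least 2, by the exact permutation test and without any 1 replicate. Leaving out replicates gave 126 to 131 loci with a peak in all remaining libraries and 39 to 45 with none.

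Loci with no peak numbered 59 with 1 kb and 15 with 5 kb, against 39. The 53 loci with a shared region became 93 with at least 3 of 4 replicates, 10 with regions of at least 500 bp, 11 with a fold enrichment of at least 2, 33 with 1 kb and 106 with 5 kb, so this count depends on the settings throughout. Without 1 replicate it was 56 to 72. The gap between intronic and intergenic loci in the controls, 5.71 percentage points, was 7.32 with 1 kb and 7.24 for sense-strand introns alone.

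No named locus gained a call, but 38 single results reversed, in loci whose difference did not pass the test. In percentage points, Cph minus control, 1 kb windows gave -0.48 at mir-8, -1.97 at mir-282 and -0.51 at mir-13b-1 to mir-2c. With 5 kb the values were -2.37 at mir-275 to mir-305, 0.050 at mir-2b-1, -1.73 at mir-100 to mir-125, -7.16 at bantam, 4.41 at mir-10 and -1.33 at mir-4917. With a fold enrichment of at least 2 they were -3.95 at mir-13b-1 to mir-2c and 0.043 at mir-13b-2. Divided by the genome share in peaks, as a ratio to it, the differences were 0.32 at mir-4943, 0.064 at mir-1, 0.010 at mir-14, 0.22 at mir-10, 0.046 at mir-2493, 0.18 at mir-279 to mir-996 and 0.018 at mir-13b-2. Replicates 1 and 2 alone, chosen as an alternative after seeing the data, gave -0.94 at mir-275 to mir-305, -1.80 at mir-8, -1.39 at mir-282 and -0.85 at mir-9377. Replicates 3 and 4 alone, chosen likewise, gave 0.085 at mir-4943, 0.35 at mir-1, 1.34 at mir-184, -0.13 at bantam, 0.44 at mir-10, -0.63 at mir-13b-1 to mir-2c, 3.27 at mir-279 to mir-996 and 3.55 at mir-13b-2.

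Without 1 replicate the values ran from -0.26 to 0.71 at mir-275 to mir-305, -7.54 to 1.65 at mir-87, -5.40 to 3.31 at mir-4943, -6.16 to 0.45 at mir-184, -0.29 to 0.96 at mir-13b-1 to mir-2c, -5.29 to 2.12 at mir-279 to mir-996 and -4.92 to 2.37 at mir-13b-2. The cause of these changes was not tested. The lists hold peaks and no read counts, GATC sites set the resolution, and 4 libraries per condition limit what a difference at a single locus can show, with standard errors from 0.738 to 9.23 percentage points.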
